A study of Mus musculus with 15 samples.

Results

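Klf6 and 6 related Kruppel-like factor genes, Klf2, Klf3, Klf4, Klf7, Klf10 and Klf13, were described across 15 RNA sequencing libraries of mouse LSK cells. LSK cells are the lineage-negative, Sca-1-positive, c-Kit-positive fraction of bone marrow, which holds stem and early progenitor cells. The 7 genes were found by symbol among the 45232 gene IDs of the table, and all 7 were among the 17834 genes that passed the filter on low counts. The set was chosen by measured values of these libraries, since Klf6 stood at the head of the comparisons of vehicle with WT and of combined treatment with vehicle. Values of the 7 genes in those 2 comparisons are a description without a test. Of the other comparisons, ruxolitinib against AG221 alone uses none of the libraries of that choice, and the rest share 1 or more groups with it.

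The vehicle, AG221, ruxolitinib and combined groups, each of 3 libraries, came from mice with JAK2/IDH2-mutant disease, and 3 libraries came from WT cells, all with the strain label C57BL/6. The mutant cells carried Idh2 R140Q and Jak2 V617F alleles that Mx1-Cre switches on in blood-forming cells, and every mutant group carried both. Marrow of these CD45.2 donors was mixed with CD45.1 WT marrow and given to lethally irradiated recipients, so the host also held WT blood cells, and only CD45.2+ LSK cells were sorted. Recipients received vehicle, the mutant IDH2 inhibitor AG221 at 40 mg per kg, the JAK1 and JAK2 inhibitor ruxolitinib at 60 mg per kg, or both by gavage for 21 to 28 days. The last dose came about 1.5 hours before the mice were killed. The labels give no treatment for the WT group and do not say whether a library was 1 mouse or a pool, so the p-values measure the spread between these libraries.

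Kruppel-like factors bind GC-rich and CACCC sequences through zinc fingers at the carboxyl end of the protein, and their amino-terminal parts decide whether a target gene is activated or repressed. Several of them respond within minutes to hours to growth factors, cytokines, shear stress or cell handling, and others change with differentiation. In blood, Klf1 drives red cell genes, Klf2 holds lymphocytes in a resting and circulating state, and Klf4 takes part in monocyte differentiation. The Sp proteins share the zinc fingers and bind the same GC-rich boxes.

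The sequences just before the start of 5 of the genes are shown because these genes moved in different directions. They come from RefSeq on GRCm38.p6 and run 5′ to 3′ on the strand of the gene. Each ends before the start of the gene in both RefSeq and GENCODE. Capitals mark matches, on either strand, to the E-box, the CRE core and the CACCC box, whose letters are given after the sequences, and to the MEF2 site, given here by name only.
Klf6, chr13:5861239-5861481, plus strand: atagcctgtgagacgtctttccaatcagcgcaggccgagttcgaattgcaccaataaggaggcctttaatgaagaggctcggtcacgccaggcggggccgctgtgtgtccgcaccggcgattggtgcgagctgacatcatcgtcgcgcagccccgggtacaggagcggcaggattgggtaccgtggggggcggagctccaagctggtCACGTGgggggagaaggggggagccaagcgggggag
Klf2, chr8:72318812-72319032, plus strand: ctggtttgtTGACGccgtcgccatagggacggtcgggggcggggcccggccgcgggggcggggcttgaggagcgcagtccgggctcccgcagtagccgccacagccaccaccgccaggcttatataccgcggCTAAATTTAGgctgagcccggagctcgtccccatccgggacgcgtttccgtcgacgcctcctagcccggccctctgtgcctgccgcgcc
Klf4, chr4:55532476-55532725, minus strand: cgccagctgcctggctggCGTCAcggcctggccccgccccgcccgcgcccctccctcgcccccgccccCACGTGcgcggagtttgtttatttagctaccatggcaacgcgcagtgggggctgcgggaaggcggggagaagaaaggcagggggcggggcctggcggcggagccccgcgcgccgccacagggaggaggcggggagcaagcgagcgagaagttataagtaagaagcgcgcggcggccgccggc
Klf3, chr5:64803271-64803387, plus strand: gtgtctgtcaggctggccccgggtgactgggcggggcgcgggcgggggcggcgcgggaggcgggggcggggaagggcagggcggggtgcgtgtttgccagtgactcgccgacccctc
Klf13, chr7:63938916-63939165, minus strand: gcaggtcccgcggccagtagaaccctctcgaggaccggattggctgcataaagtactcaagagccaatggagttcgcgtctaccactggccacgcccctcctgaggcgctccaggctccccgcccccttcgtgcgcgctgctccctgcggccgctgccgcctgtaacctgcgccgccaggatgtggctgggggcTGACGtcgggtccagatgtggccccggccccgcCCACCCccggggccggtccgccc

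Promoters of 6 of the 7 genes matched the RefSeq table, and Klf10 had no entry. Motifs were searched on both strands in the 250 bases before the RefSeq start. For Klf7 this window (chr1:64121390-64121639, minus strand) lies inside the gene as annotated in GENCODE, where it starts at 64122282. Its matches and absences of motifs are thus not upstream of that start. The GC box GGGCGG, the site of Sp and Klf proteins, was found before all 6 genes and before 32.7% of 32851 promoters. The 6 windows were 59.2% to 78.4% GC, beside a median of 52.4% for all promoters, and the shares are not matched for GC content. The CACCC box CCACCC was found before Klf2, Klf3, Klf7 and Klf13 and before 28.1% of promoters, and those of Klf2 and Klf3 lie in stretches that were not printed. An E-box CACGTG, which Myc and its relatives bind, starts 43 bases before the start of Klf6 and 182 bases before that of Klf4, and 6.02% of promoters hold one. The CRE core TGACG, a part of the full site of CREB proteins, was found before Klf2, Klf4 and Klf13 and before 17.8% of promoters. A MEF2 site starts 118 bases before the start of Klf2 and is held by 2.92% of promoters. Matches to the CArG box of serum response factor (1.47% of promoters), the AP-1 site TGANTCA (6.75%) and the STAT site TTCNNNGAA (7.02%) were not in these windows of any of the 6 genes. The same held for the full CRE TGACGTCA (1.55%), which contains the CRE core, and for the TATA box TATAAA (12.4%). It also held for the glucocorticoid response element (0.387%) and the NF-kB site (3.9%).

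Library totals ran from 18836625 to 32174287 counts. The WT libraries held 29782 to 34487 genes with a count and the others 21369 to 26329. The 9 libraries of the vehicle and single-agent groups have replicate names in A, and the 6 combined and WT libraries have names in B. The meaning of the letter is not stated, and it cannot be told apart from the difference between these sets of libraries. Within a letter the comparisons are those among vehicle, AG221 and ruxolitinib and that of combined treatment with WT. All 12 LSK marker genes were above 3 counts in at least 1 library of every group. Ly6a, which encodes Sca-1, was lowest in vehicle replicate A4 at 13.1 CPM and ran from 42.9 to 166 CPM in the other 14 libraries. WT libraries had 0 to 0.101 CPM of the Y-linked gene Ddx3y and the mutant groups 124 to 206 CPM, and sex and genotype cannot be told apart in comparisons with WT.

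Klf6 (ENSMUSG00000000078, chromosome 13, 5861482 to 5870394, plus strand), a factor induced by injury and growth signals and an activator of the cell cycle inhibitor gene Cdkn1a, had the highest level of the members per exon length in 3 of the 5 groups. In CPM (the count of a gene scaled by the library total and the TMM factor), its level was 78.5, 68.7 and 67.7 in the WT libraries and 970.0, 945 and 675 in the vehicle libraries. With AG221 it was 608, 418 and 594 CPM, and with ruxolitinib 666, 518 and 547 CPM. With combined treatment it was 76.8, 61.9 and 67.5 CPM. The combined and WT libraries formed a low set between 61.9 and 78.5 CPM, and the 9 other libraries a high set between 418 and 970.0 CPM. The lowest vehicle library lay just above the highest ruxolitinib library, and the AG221 and ruxolitinib libraries overlapped.

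**Figure D1:**
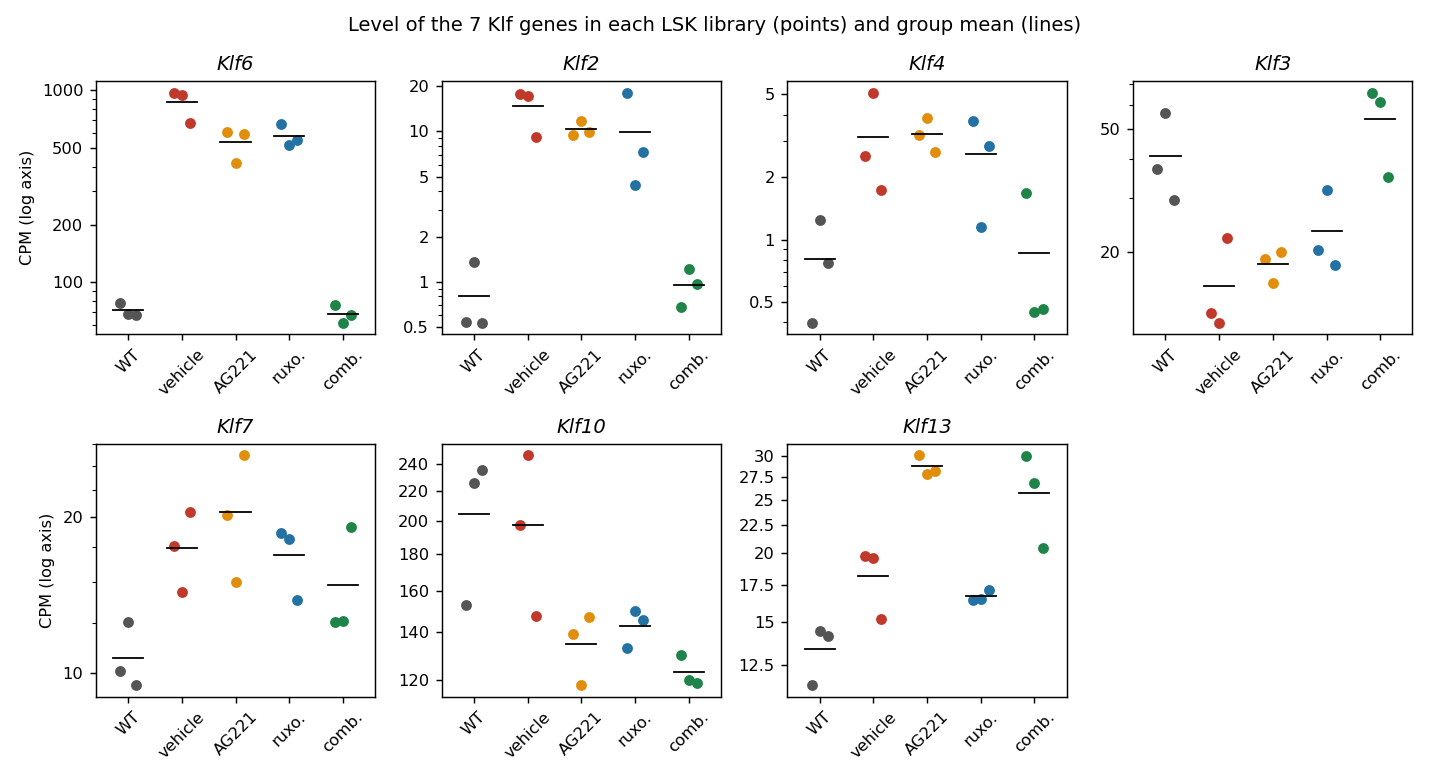
Level of each of the 7 Klf genes in CPM on a log axis, with 1 point per library and a line at the group mean (3 libraries per group; ruxo., ruxolitinib; comb., combined). Klf6 and Klf2 are low in all WT and combined libraries and high in all others, whereas Klf3 shows the opposite order, with its lowest WT library at 29.4 CPM and ruxolitinib replicate A16 at 31.7 CPM.

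The question behind the treatment groups was whether inhibiting both mutant pathways changed expression in mutant LSK cells more than inhibiting either. Adjusted p-values are those of the quasi-likelihood test of edgeR, adjusted by Benjamini-Hochberg over all genes tested, and a gene was called at an adjusted p under 0.05. Klf6 had a log2 fold change of -0.68 for AG221 against vehicle (95% interval -1.06 to -0.30, edgeR adjusted p = 0.0629). For ruxolitinib against vehicle it was -0.58 (95% interval -0.96 to -0.20, edgeR adjusted p = 0.774). All 3 libraries of each single agent lay below the 3 vehicle libraries, yet neither difference passed the test. The difference for AG221 passed with DESeq2, with 10 counts in every library and without AG221 replicate A9 (adjusted p = 0.0354 with edgeR). Combined treatment lay 7.85-fold below AG221 (log2 fold change -2.97, standard error 0.190, edgeR adjusted p = 6.2e-06). It lay 8.39-fold below ruxolitinib (log2 fold change -3.07, standard error 0.191, edgeR adjusted p = 5.56e-06). In each of these comparisons Klf6 ranked 1 of all genes by p-value, and both use the combined libraries that led to its choice.

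The single-agent groups did not separate for Klf6, with a log2 fold change of 0.097 for ruxolitinib against AG221 (95% interval -0.28 to 0.48, edgeR adjusted p = 0.763). Its sign turned with upper quartile scaling (-0.097). Against WT, Klf6 was 7.54-fold higher with AG221 and 8.06-fold higher with ruxolitinib (edgeR adjusted p = 1.52e-06 and 1.15e-06). With combined treatment the log2 fold change against WT was -0.059 (95% interval -0.44 to 0.32, edgeR adjusted p = 0.861), and the groups overlapped. Departure from additivity is the change that ruxolitinib made when added to AG221 minus the change it made alone. For Klf6 it was -2.39 on the log2 scale (standard error 0.253, edgeR adjusted p = 0.00142), the 3rd smallest p-value of all genes. It uses the vehicle and combined libraries that led to the choice of Klf6, so its p-value and rank are not independent of that choice. As a description, Klf6 was 12.1-fold higher with vehicle than in WT and 12.6-fold lower with combined treatment than with vehicle.

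Klf2 (ENSMUSG00000055148, chromosome 8), the factor of lymphocyte rest and of the response of vessels to flow, followed the same order at a much lower level. It was at 0.544, 1.35 and 0.536 CPM in WT and at 0.678, 1.21 and 0.971 CPM with combined treatment, or 13 to 40 counts per library. It was at 17.8, 17.2 and 9.12 CPM with vehicle, 9.49, 11.7 and 9.93 CPM with AG221, and 18.1, 4.40 and 7.35 CPM with ruxolitinib. Every vehicle and single-agent library was above every WT and combined library, and ruxolitinib replicate A16 came closest. Klf2 was 10.7-fold lower with combined treatment than with AG221 (log2 fold change -3.42, standard error 0.529, edgeR adjusted p = 0.00207). It was 10.3-fold lower than with ruxolitinib (log2 fold change -3.36, standard error 0.528, edgeR adjusted p = 0.00197).

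Against WT, Klf2 was 12.7-fold higher with AG221 and 12.2-fold higher with ruxolitinib (edgeR adjusted p = 0.000331 and 0.00118). Its log2 fold change was 0.25 with combined treatment against WT (95% interval -0.89 to 1.38, edgeR adjusted p = 0.803). Neither single agent passed the test against vehicle for Klf2, with log2 fold changes of -0.51 for AG221 (95% interval -1.50 to 0.49) and -0.56 for ruxolitinib (95% interval -1.56 to 0.43). Klf2 departed from additivity by -2.86 on the log2 scale (standard error 0.689, edgeR adjusted p = 0.0363). That call was lost without any 1 of 7 libraries, vehicle A3 or A4, AG221 A8 or A10, ruxolitinib A17 and combined B24 or B25, where the adjusted p reached 0.0994 (edgeR).

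Klf4 (ENSMUSG00000003032, chromosome 4), a factor of monocyte differentiation and of reprogramming to pluripotency, was the least abundant member per length, with 10 to 160 counts per library. It was at 0.399, 1.25 and 0.771 CPM in WT, 2.52, 5.11 and 1.74 CPM with vehicle, and 3.21, 3.85 and 2.66 CPM with AG221. With ruxolitinib it was at 3.72, 1.15 and 2.84 CPM and with combined treatment at 1.67, 0.449 and 0.463 CPM. Klf4 thus tended to the order of Klf6, but ruxolitinib replicate A16 fell among the WT and combined libraries. Combined treatment lay 3.82-fold below AG221 for Klf4 (log2 fold change -1.93, standard error 0.611, edgeR adjusted p = 0.0276), a call lost without AG221 A8 or combined B25 or B26 (edgeR adjusted p up to 0.104). Against ruxolitinib the log2 fold change was -1.60 (standard error 0.609, edgeR adjusted p = 0.111). Against WT it was 1.99 with AG221 and 1.66 with ruxolitinib (edgeR adjusted p = 0.0153 and 0.0487). The AG221 call was lost without WT B28, and the ruxolitinib call without ruxolitinib A14 or A17 or any WT library (edgeR adjusted p up to 0.142). The difference from ruxolitinib was called with DESeq2 and without combined B24 (edgeR adjusted p = 0.0386).

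Klf3 (ENSMUSG00000029178, chromosome 5), a repressor that works through the cofactor CtBP, had the opposite order. It was at 37.3, 56.7 and 29.4 CPM in WT and at 65.9, 61.4 and 35.0 CPM with combined treatment. It was at 12.7, 11.8 and 22.2 CPM with vehicle, 19.0, 15.9 and 20.04 CPM with AG221, and 20.3, 31.7 and 18.1 CPM with ruxolitinib. The low and high sets were separate except that ruxolitinib replicate A16 lay above WT replicate B31. Klf3 was 2.95-fold higher with combined treatment than with AG221 (log2 fold change 1.56, standard error 0.332, edgeR adjusted p = 0.00482). It was 2.31-fold higher than with ruxolitinib (log2 fold change 1.21, standard error 0.329, edgeR adjusted p = 0.0276), a call lost without ruxolitinib A14 or A17 or combined B24 or B25 (edgeR adjusted p up to 0.116).

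Against WT, Klf3 was 2.25-fold lower with AG221 (edgeR adjusted p = 0.0109), a call lost without WT B30 (edgeR adjusted p = 0.0601). With ruxolitinib the log2 fold change against WT was -0.81 (95% interval -1.52 to -0.11, edgeR adjusted p = 0.0692). With combined treatment it was 0.40 (95% interval -0.30 to 1.09, edgeR adjusted p = 0.463). Of the exons of Klf3, 3.59% lie under an antisense gene, and the strand setting of the counting is not stated. The ratio of Klf6 to Klf3 counts, which scaling cannot change, was 1.21 to 2.30 in WT, 30.4 to 80.1 with vehicle, 26.3 to 32.0 with AG221, 16.3 to 32.7 with ruxolitinib and 1.01 to 1.93 with combined treatment. Every vehicle or single-agent library held at least 16.3 counts of Klf6 for each of Klf3.

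The other members did not share this order. Klf13 (ENSMUSG00000052040, chromosome 7), known from T cells as an activator of Ccl5, was at 11.5, 14.5 and 14.1 CPM in WT and 19.8, 19.6 and 15.2 CPM with vehicle. It was at 30.1, 27.9 and 28.3 CPM with AG221, 16.4, 16.5 and 17.1 CPM with ruxolitinib, and 30.1, 26.8 and 20.4 CPM with combined treatment. The groups that received AG221 were the highest, and ruxolitinib alone lay within the vehicle range. Klf13 was the single member that differed between the single agents, 1.72-fold lower with ruxolitinib than with AG221 (log2 fold change -0.79, standard error 0.176, edgeR adjusted p = 0.036). That call was lost without AG221 A8 or A10 or any ruxolitinib library (edgeR adjusted p up to 0.134), while its log2 fold change stayed between -0.84 and -0.77.

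Klf13 was 1.54-fold higher with combined treatment than with ruxolitinib (edgeR adjusted p = 0.0323), a call lost without any 1 ruxolitinib library, combined B24 or combined B25 (edgeR adjusted p up to 0.165) and in 4 of 8 other settings. It was 2.15-fold higher with AG221 than in WT (edgeR adjusted p = 0.000518). It was 1.93-fold higher with combined treatment than in WT (log2 fold change 0.95, standard error 0.176, edgeR adjusted p = 0.0155), and it was the member called there. That call was lost without combined B25 or WT B28 (edgeR adjusted p up to 0.0767). Against vehicle, AG221 gave a log2 fold change of 0.66 for Klf13 (95% interval 0.28 to 1.04, edgeR adjusted p = 0.0638) without overlap of the libraries. That difference was called with DESeq2, with upper quartile scaling, with 10 counts in every library with GC content offsets and without AG221 A9.

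Klf10 (ENSMUSG00000037465, chromosome 15), a factor induced early by TGF-beta that recruits the Sin3 corepressor, was the most abundant member per length in WT and combined libraries. It was at 153, 226 and 236 CPM in WT, 197, 247 and 147 CPM with vehicle, and 139, 118 and 147 CPM with AG221. With ruxolitinib it was at 133, 149.6 and 146 CPM and with combined treatment at 130.1, 120.0 and 119 CPM. All treated libraries lay below the WT libraries for Klf10. The difference was called for AG221 against WT (1.52-fold lower, edgeR adjusted p = 0.0186) and missed for ruxolitinib and combined treatment against WT (log2 fold changes -0.52 and -0.73, edgeR adjusted p = 0.0505 and 0.0519). The AG221 call was lost without AG221 A8 or A9 or WT B30 or B31 (edgeR adjusted p up to 0.0762), and the other differences were called without WT B28 (edgeR adjusted p = 0.0289 and 0.0471). Of 8 other settings, 4 lost the AG221 call for Klf10 (edgeR adjusted p up to 0.0973), 2 called the difference for ruxolitinib and 5 that for combined treatment.

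Klf7 (ENSMUSG00000025959, chromosome 1), the closest relative of Klf6 and known from nerve cells, was at 10.1, 12.5 and 9.49 CPM in WT and 17.6, 14.3 and 20.4 CPM with vehicle. It was at 20.1, 15.0 and 26.2 CPM with AG221, 18.6, 18.1 and 13.8 CPM with ruxolitinib, and 12.6, 12.6 and 19.1 CPM with combined treatment. All WT libraries were below all others for Klf7, by the smallest margin for combined treatment. Among the tested comparisons Klf7 was called for AG221 against WT alone (1.91-fold higher, edgeR adjusted p = 0.00818). Antisense genes cover 39.4% of its exons, and their reads cannot be told apart from those of Klf7 without strand.

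**Figure D2:**
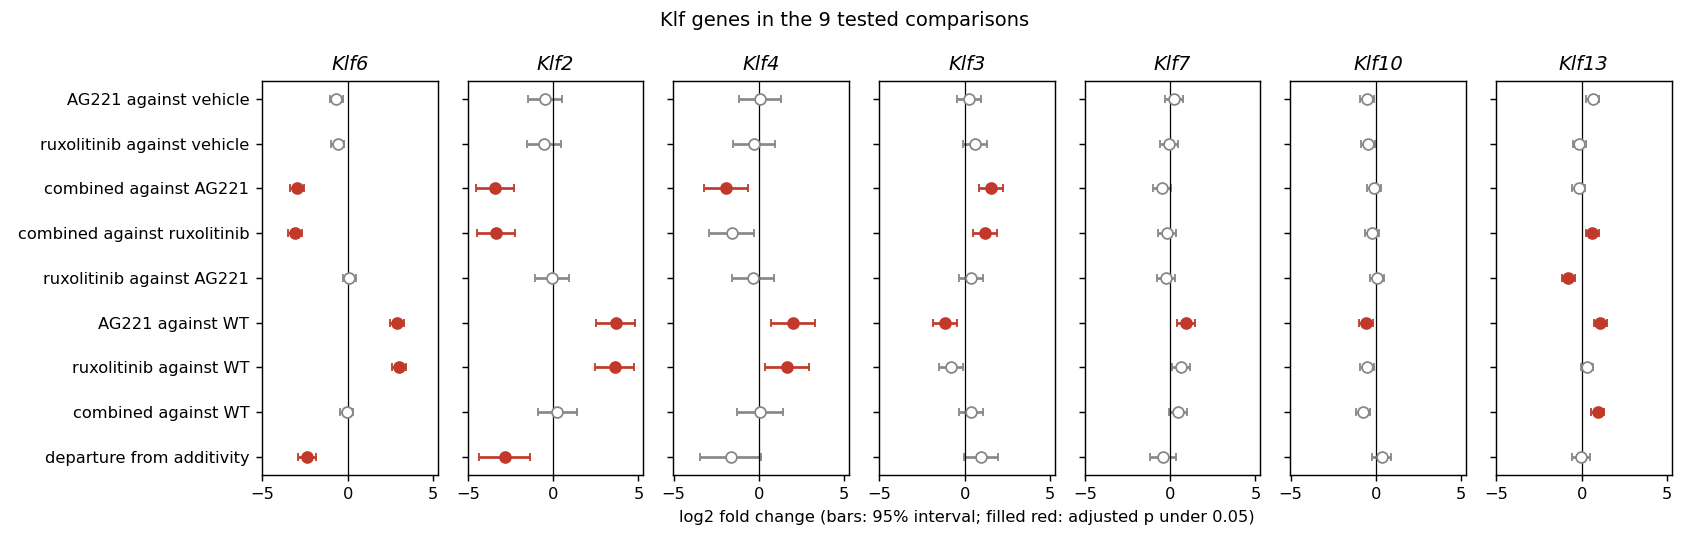
Log2 fold change of each Klf gene (x axis) in the 9 tested comparisons (y axis), with 95% intervals as bars and filled red points where edgeR's adjusted p was under 0.05. Klf6, Klf2 and Klf3 stand away from 0 in both comparisons of combined treatment with a single agent and near 0 for combined treatment against WT, where Klf13 is called.

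Counted over the 7 genes, none was called by edgeR for AG221 against vehicle, where 0.987% of all genes were called, or for ruxolitinib against vehicle, where 0.0168% were. At an unadjusted p under 0.05, 3 and 2 of the 7 passed, beside 4498 and 813 of the 17834 genes tested. DESeq2 called 2 and 0 of the 7, and no share of all genes is given for it. Combined treatment against AG221 called 1 higher, beside 18.9% of all genes, and 3 lower, beside 14.3%. Combined treatment against ruxolitinib called 2 higher, beside 8.5%, and 2 lower, beside 3.94%. Ruxolitinib against AG221 called 0 higher, beside 1.37%, and 1 lower, beside 2.06%. AG221 against WT called 5 higher, beside 22.2%, and 2 lower, beside 28.5%, and the median log2 fold change of all genes was -0.25. Ruxolitinib against WT called 3 higher, beside 16.1%, and 0 lower, beside 16.2%. Combined treatment against WT called 1 higher, beside 1.63%, and 0 lower, beside 1.61%. Departure from additivity called 0 higher, beside 5.6%, and 2 lower, beside 2.82%. In the comparisons that led to the choice of genes the counts are a description from which nothing is read. There, vehicle against WT had 4 members higher (15.4% of all genes) and 1 lower (17.9%), and combined treatment against vehicle had 1 higher (8.28%) and 3 lower (4.21%). These comparisons share libraries, so their counts are not independent.

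Levels can be compared between genes only per length, here as CPM per kilobase of exon. In WT, Klf10 led at 49.0 ± 10.8 and Klf6 followed at 16.3 ± 1.36 CPM per kilobase (SD, n = 3 for this and all such values). With vehicle, Klf6 led at 197 ± 37.3 and Klf10 stood at 47.2 ± 11.9. Klf6 also led with AG221 at 123 ± 24.2 and with ruxolitinib at 131 ± 17.9. With combined treatment Klf10 was again first at 29.4 ± 1.47 and Klf6 second at 15.7 ± 1.71. Klf2 stood 3rd in the vehicle and single-agent groups, at 5.39 to 7.97 CPM per kilobase, and 6th in WT and combined libraries, at 0.438 and 0.516. Klf3, Klf7 and Klf13 lay between 1.32 and 4.81 CPM per kilobase in every group, and neighbours among them overlapped in several groups. Klf4 was last in every group at 0.264 to 1.06. Klf6 made up 59.2% to 74.6% of the summed CPM of all 17 Klf genes in the vehicle and single-agent libraries and 11.2% to 20.1% in the WT and combined libraries.

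Of the 10 other Klf genes, 7 passed the filter and Klf14, Klf15 and Klf17 did not. Klf5, a growth-promoting factor of epithelia, was at 1.02 to 5.70 CPM with combined treatment and 0.128 to 0.989 CPM in the vehicle and single-agent libraries. Its log2 fold change for combined treatment was 3.28 against AG221 and 2.69 against ruxolitinib (edgeR adjusted p = 0.00502 and 0.0189). Klf16 was at 5.27 to 10.4 CPM with combined treatment and 1.03 to 4.08 CPM in those libraries, with log2 fold changes of 1.70 and 1.73 (edgeR adjusted p = 0.017 and 0.0308). Klf11, a TGF-beta induced repressor like Klf10, was at 40.0 to 56.2 CPM with combined treatment and 8.72 to 18.8 CPM with AG221 (log2 fold change 1.97, edgeR adjusted p = 0.00408). Klf1, the red cell factor, was at 70.1 to 171 CPM with combined treatment and 6.16 to 44.0 CPM with AG221 (log2 fold change 2.53, edgeR adjusted p = 0.0246). Klf1 also reached 129 CPM in vehicle replicate A4, against 16.02 and 29.1 CPM in the other vehicle libraries.

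Klf12, a CtBP-dependent repressor, set WT apart from all other libraries, at 4.90 to 6.60 CPM against 0.0789 to 1.56 CPM. Its log2 fold change against WT was -3.46 with AG221 and -3.31 with ruxolitinib (edgeR adjusted p = 0.00419 and 0.0106). With combined treatment it was -2.75, without overlap of the libraries, and did not pass the test (edgeR adjusted p = 0.0637). Klf8, the relative of Klf3 that Klf3 represses, was higher than in WT by 0.47 with AG221 and 0.73 with ruxolitinib on the log2 scale (edgeR adjusted p = 0.0495 and 0.0135). Klf9, a hormone-responsive factor, had group means of 6.20 to 11.2 CPM and was called in none of the 11 comparisons. The Sp genes Sp1, Sp2, Sp3 and Sp4 passed the filter, and Sp5, Sp6, Sp7, Sp8 and Sp9 did not.

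Sp3, like Klf3, was higher in WT and combined libraries, at 139 to 210.3 CPM with combined treatment, 117 to 166 CPM in WT and 43.2 to 100.3 CPM in the other libraries. Its log2 fold change for combined treatment was 1.61 against AG221 and 1.35 against ruxolitinib (edgeR adjusted p = 0.00336 and 0.0102). Sp2 was lower with combined treatment than with ruxolitinib (log2 fold change -0.77, edgeR adjusted p = 0.012). Sp1 had group means of 79.7 to 107 CPM and was higher with AG221 than in WT (log2 fold change 0.43, edgeR adjusted p = 0.0262). Sp4 had group means of 23.3 to 32.4 CPM and was called in none of the 11 comparisons. Antisense genes cover 3.69% of the exons of Sp2 and 2.21% of those of Sp3.

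**Figure D3:**
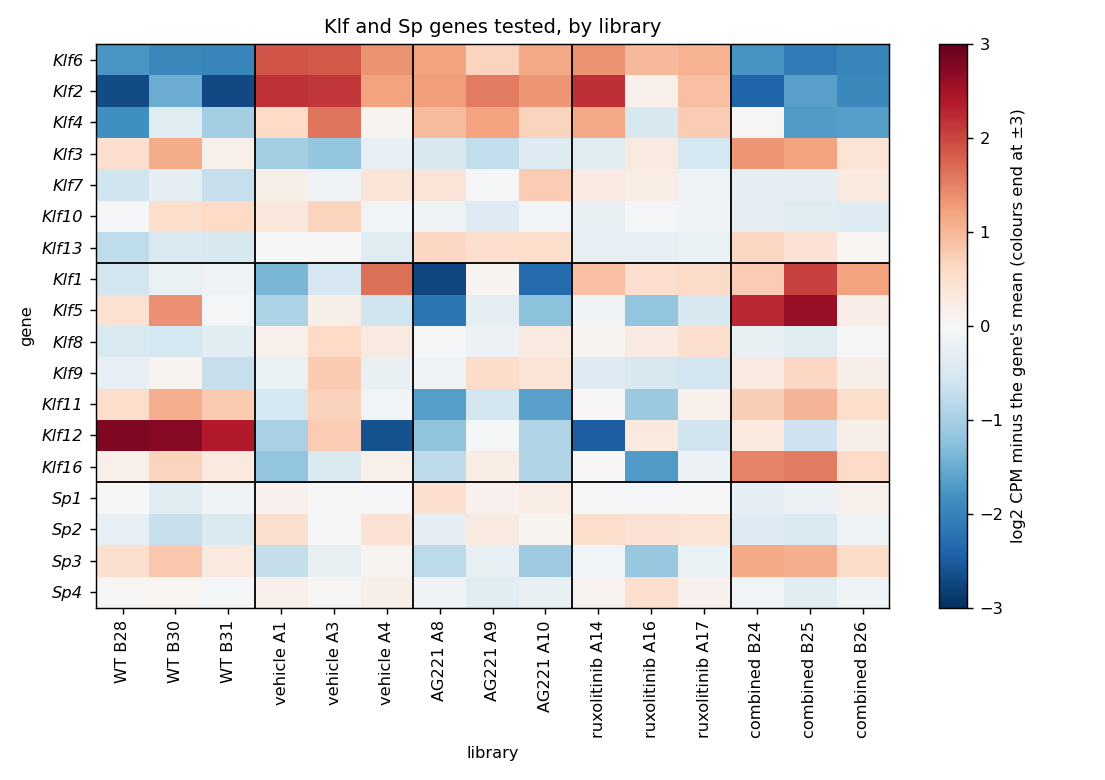
Log2 CPM of the 18 Klf and Sp genes that passed the filter (rows) in each library (columns), as the difference from the mean of each gene, with colours ending at ±3. In all WT and combined libraries Klf6 and Klf2 lie below their mean and Klf3 and Sp3 above theirs, and Klf12 is high in the 3 WT libraries.

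Genes were ranked by the correlation of their log2 CPM with that of Klf6 over the 15 libraries. The points share groups, letters of the replicate names and depth, so the coefficients are a description. Pearson r was over 0.9 for 112 genes and under -0.9 for 58, and Spearman's rho for 23 and 1. The 10 highest were Ptgs2, Btg2, Atf3, Zfp36, Ier3, Fos, Fosb, Gm37780, Rgs1 and Hspa5, with Pearson r of 0.976 to 0.990. Of these, 6 belong to the immediate-early list of 23 genes, Ptgs2 encodes an inducible prostaglandin synthase, and Hspa5 encodes a chaperone of the endoplasmic reticulum. Btg2, an antiproliferative gene, had group means of 67.6 CPM in WT, 828 with vehicle, 500.2 with AG221, 549 with ruxolitinib and 69.5 with combined treatment. The 5 lowest were 6430590A07Rik, Fbln1, Fam208a, Wwp1 and Foxo3, with r of -0.967 to -0.940. Foxo3, a factor of stem cell rest, had group means of 34.8 CPM in WT, 13.98 to 14.8 CPM with vehicle and single agents and 35.8 CPM with combined treatment. Among the members, r with Klf6 was 0.958 for Klf2, 0.821 for Klf4, 0.641 for Klf7, 0.135 for Klf13, 0.0705 for Klf10 and -0.864 for Klf3. With Spearman's rho in place of r, 3 of the 10 and 0 of the 5 genes were the same.

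Immediate-early genes, which cells switch on within minutes of stimulation or handling, moved with Klf6 and Klf2. Their summed level over 23 genes was 1673 to 1971 CPM in WT, 8730 to 17283 CPM with vehicle, 5038 to 7340 CPM with AG221, 5472 to 11038 CPM with ruxolitinib and 1877 to 2444 CPM with combined treatment. Combined treatment against AG221 called 1 of the 23 higher (18.9% of all genes) and 11 lower (14.3%), and combined treatment against ruxolitinib called 0 higher (8.5%) and 11 lower (3.94%). Combined treatment against WT called 0 of them with edgeR, beside 1.63% of all genes higher and 1.61% lower, and 0 with DESeq2. At an unadjusted p under 0.05 it had 0 of the 23, beside 2336 higher and 2193 lower of 17834 genes. AG221 against vehicle called 0 with edgeR, beside 0.987% of all genes, and 7 with DESeq2, for which no share is given. At an unadjusted p under 0.05 it had 14 of the 23, beside 4498 of 17834 genes. Egr3 was at or under 3 counts in all WT and combined libraries. Vehicle replicate A4 and ruxolitinib replicate A16 had the lowest sum of their groups and also the lowest Klf6, Klf2 and Klf4 and the highest Klf3. In the AG221 group the sum was highest in replicate A9, which had the lowest Klf6 and the highest Klf2. The part of this in the Klf levels was not tested.

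**Figure D4:**
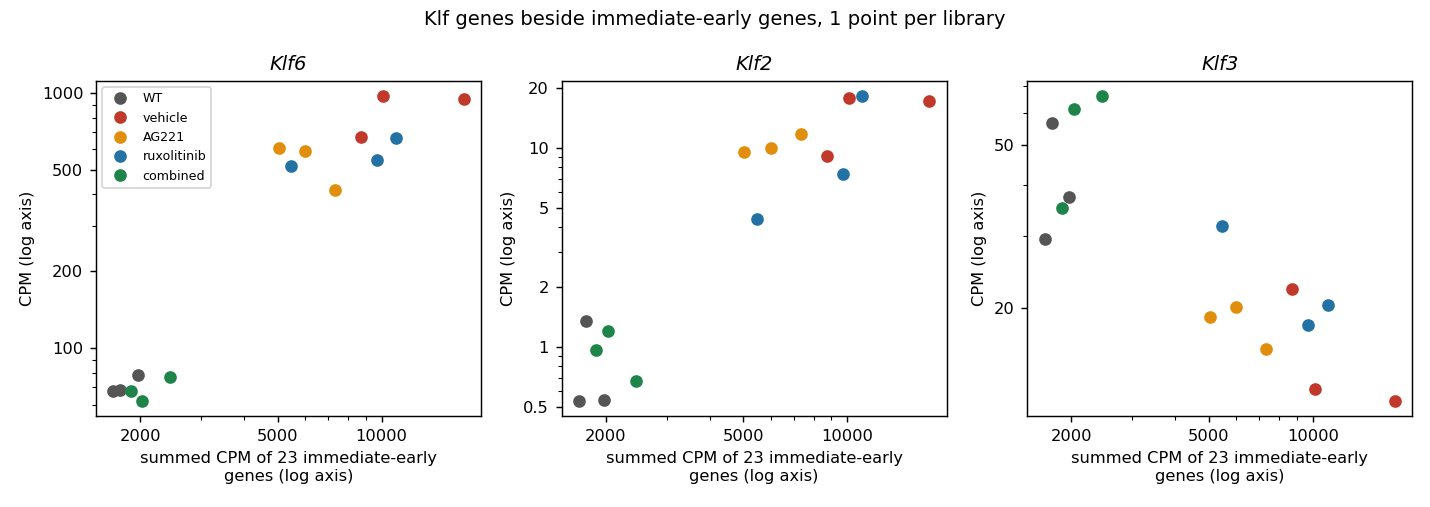
CPM of Klf6, Klf2 and Klf3 (y axes, log) against the summed CPM of 23 immediate-early genes (x axis, log), with 1 point per library coloured by group. All WT and combined libraries lie at or below 2444 CPM on the x axis and all others at or above 5038 CPM, with Klf6 and Klf2 higher and Klf3 mostly lower in the latter.

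Other response lists moved as well. The 12 heat shock genes summed to 3536 to 4496 CPM in WT, 3817 to 4646 CPM with combined treatment and 4869 to 9470.2 CPM in the other libraries, with Hspa1a and Hspb1 at or under 3 counts in all combined libraries and Hspb1 in all AG221 libraries. Of the 11 tested, combined treatment against AG221 called 0 higher and 7 lower, beside 18.9% and 14.3% of all genes, and combined treatment against ruxolitinib 0 higher and 1 lower, beside 8.5% and 3.94%. The 10 glucocorticoid-induced genes, which include Klf9, summed to 297 to 466 CPM in WT, 419 to 513 CPM with combined treatment and 575 to 984 CPM in the other libraries. Combined treatment called 1 of these 10 higher and 4 lower against AG221, and 1 higher and 3 lower against ruxolitinib, beside the same shares of all genes. Among marker lists, the summed level of 10 neutrophil genes was 2940 to 3302 CPM in WT, 3577 to 6319 CPM with combined treatment and 6640.4 to 17671 CPM in the other libraries. That of 10 monocyte and macrophage genes was 459 to 510.5 CPM in WT, 662 to 1082 CPM with combined treatment and 935 to 2493 CPM in the others. The 9 T and NK cell genes summed to 166 to 229 CPM in WT, 381 to 404 CPM with combined treatment and 410.3 to 763 CPM in the others, with Gzma and Ncr1 at or under 3 counts in all vehicle libraries. Gzma was also there in all AG221 libraries and Ncr1 in all combined libraries. Most of the 7 tested genes did not follow the sum against WT. With each of vehicle and combined treatment 1 was above WT (median log2 fold change -0.60 and -1.51), and with each of AG221 and ruxolitinib 3 were (-0.45 and -0.040). The part of these cells in the levels of Klf2, Klf4 and Klf6 was not tested, and in such bulk samples more cells of a type and more RNA per cell cannot be told apart.

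The monocyte and macrophage sums of the combined libraries overlapped those of the high Klf6 libraries, as did the sums of the marker lists that follow. The 8 plasma cell genes summed to 3589 to 11077 CPM in WT and 190 to 774 CPM elsewhere, with Tnfrsf17 at or under 3 counts in all vehicle libraries. The 8 mast cell and basophil genes summed to 75.5 to 157 CPM in WT, 267 to 466 CPM with combined treatment and 302 to 1005 CPM elsewhere. The ranges of the erythroid (1659 to 6896 CPM), megakaryocyte (577 to 1499 CPM), B cell (28.5 to 94.7 CPM), endothelial (247 to 411 CPM) and LSK (2745 to 4924 CPM) lists overlapped between the combined libraries and those of vehicle or a single agent. WT libraries stood apart from all others in the erythroid, megakaryocyte, B cell and LSK lists. They were lower in erythroid (at most 1802 CPM, others at least 2063) and megakaryocyte genes (at most 699.6 CPM, others at least 736). They were higher in B cell (at least 68.0 CPM, others at most 57.9) and LSK genes (at least 4482 CPM, others at most 4159).

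Genes that act upstream of Klf factors were taken from a list of 14. Combined treatment against AG221 called 7 of 14 higher and 0 lower, beside 18.9% and 14.3% of all genes (median log2 fold change 0.99, beside 0.11 for all genes). Combined treatment against ruxolitinib also called 7 higher and 0 lower, beside 8.5% and 3.94% (median 0.82, beside 0.014). Foxo3, the factor of stem cell rest, had log2 fold changes of 1.27 and 1.36 (edgeR adjusted p = 0.00262 and 0.00207). Mef2a, whose protein activates Klf2 and Klf4 downstream of the kinase Erk5, rose by 1.68 against AG221 (edgeR adjusted p = 0.0033), as did Map2k5, the kinase above Erk5, by 1.17 (edgeR adjusted p = 0.00374). Srf, which binds CArG boxes of early response genes, and Smad4, the shared signal carrier of TGF-beta, rose by 1.43 and 1.20 against ruxolitinib (edgeR adjusted p = 0.00443 and 0.00935). AG221 against WT called 0 higher and 7 lower of the 14, beside 22.2% and 28.5% of all genes, and ruxolitinib against WT 0 higher and 5 lower, beside 16.1% and 16.2%. Combined treatment against WT called 0, beside 1.63% of all genes higher and 1.61% lower, and 1 with DESeq2. At an unadjusted p under 0.05 it had 1 of the 14, beside 2336 higher and 2193 lower of 17834 genes. Tgfbr1, a receptor of TGF-beta, was among those lower with AG221 than in WT (log2 fold change -1.45, edgeR adjusted p = 0.00104). Departure from additivity called 3 higher and 0 lower, beside 5.6% and 2.82% of all genes.

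Of 5 ubiquitin ligase genes, including ligases of Klf proteins, those called by edgeR were also higher with combined treatment. The summed level of the 5 genes was not, at 207 to 258 CPM with combined treatment, 204 to 290 CPM with AG221 and 243 to 277 CPM with ruxolitinib. Combined treatment against AG221 called 4 of 5 higher and 0 lower, beside 18.9% and 14.3% of all genes (median log2 fold change 0.92). The remaining gene had a log2 fold change below 0, and DESeq2 called all 5. Combined treatment against ruxolitinib called 3 higher and 0 lower, beside 8.5% and 3.94% (median 0.99). Wwp1, a ligase of Klf2 and Klf5, rose by 0.92 and 0.99 on the log2 scale (edgeR adjusted p = 0.00374 and 0.00365). Fbxw7 rose by 0.82 and 1.35 (edgeR adjusted p = 0.012 and 0.00213). Fbxo32 rose by 1.65 against AG221 (edgeR adjusted p = 0.0117) and Smurf1 by 1.76 against ruxolitinib (edgeR adjusted p = 0.00406). AG221 against WT called 0 higher and 4 lower, beside 22.2% and 28.5%. Combined treatment against WT called 0, beside 1.63% of all genes higher and 1.61% lower, and 0 with DESeq2. At an unadjusted p under 0.05 it had 0 of the 5, beside 2336 higher and 2193 lower of 17834 genes.

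The list of cofactors held calls in both directions. Combined treatment against AG221 called 3 of 11 higher and 0 lower, beside 18.9% and 14.3% of all genes, and combined treatment against ruxolitinib called 4 higher and 1 lower, beside 8.5% and 3.94%. Ctbp1, the corepressor that Klf3, Klf8 and Klf12 recruit, rose by 1.87 and 2.32 on the log2 scale (edgeR adjusted p = 0.00431 and 0.00259). Hdac2, a histone deacetylase of the Sin3 complex, rose by 3.13 and 2.25 (edgeR adjusted p = 0.00262 and 0.0113). Kat2b, an acetyltransferase, was 0.71 lower with ruxolitinib than with AG221 (edgeR adjusted p = 0.0385) and rose by 1.19 with combined treatment against ruxolitinib (edgeR adjusted p = 0.0012). AG221 against WT called 2 higher and 1 lower, beside 22.2% and 28.5%, and ruxolitinib against WT called 2 higher and 3 lower, beside 16.1% and 16.2%.

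A list of genes reported as Klf targets elsewhere had 12 tested members. Combined treatment against AG221 called 2 of 12 higher and 2 lower, beside 18.9% and 14.3% of all genes, and combined treatment against ruxolitinib called 0 higher and 1 lower, beside 8.5% and 3.94%. Cdkn1a, the target of Klf6 and Klf4 that also stands on the glucocorticoid list, fell by 1.57 and 1.55 on the log2 scale (edgeR adjusted p = 0.00275 and 0.00309). Against WT, Cdkn1a was higher by 2.38 with AG221 and 2.36 with ruxolitinib (edgeR adjusted p = 0.000126 and 0.000309). S1pr1, the exit receptor that Klf2 activates in T cells, was lower with AG221 than with vehicle (log2 fold change -1.29, edgeR adjusted p = 0.0458) and 1.02 higher with combined treatment than with AG221 (edgeR adjusted p = 0.00405). Klf2 was lower with combined treatment than with AG221, in the other direction. Lgals3, a galectin gene, fell by 1.45 with combined treatment against AG221 (edgeR adjusted p = 0.0161). AG221 against WT called 4 higher and 3 lower of the 12, beside 22.2% and 28.5%, among the lower Txnip, a brake on glucose uptake (log2 fold change -1.12, edgeR adjusted p = 0.00295). Ruxolitinib against WT called 2 higher and 1 lower, beside 16.1% and 16.2%. Combined treatment against WT called 0, beside 1.63% of all genes higher and 1.61% lower, and 2 with DESeq2. At an unadjusted p under 0.05 it had 2 of the 12, beside 2336 higher and 2193 lower of 17834 genes.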

How the data were processed

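CD45.2+ LSK cells were sorted, their RNA was amplified with SMARTer chemistry, and paired-end reads were sequenced. The authors deposited raw counts per Ensembl gene, made with STAR 2.5.1a on mm10 (GRCm38) in its counting mode. The Ensembl release and the strand setting are not given in the sources used here. A second deposited table of counts normalized with DESeq2 1.6.3 was not used. Symbols and positions were taken from GENCODE M21 on GRCm38.

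Groups followed the treatment labels. Genes were filtered with filterByExpr and fitted across all 15 libraries with edgeR 4.0.16 (TMM, quasi-likelihood, R 4.3.3), adjusted by Benjamini-Hochberg. The script was tested on simulated data. Standard errors were the log2 fold change divided by the square root of F. Correlations used log2 CPM with a prior count of 2. Library depth limits the precision, and 95% intervals are those of the fit.

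The members and all gene lists were chosen with earlier results of these data known. Named genes were the 7 members, the other Klf and Sp genes, the 10 genes most and the 5 least correlated with Klf6, and up to 3 called genes with the smallest adjusted p per list of regulators, cofactors, ubiquitin ligases and targets. Response and marker lists were given by their sums. Alternatives were RLE, upper quartile and total-count scaling, DESeq2 1.42.0, no filter beyond 1 count, 10 counts in every library, only the groups compared, each library left out and, added after seeing the data, GC content offsets (lowess span 0.3). Protein sequences were not analysed here.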

Additional observations from a re-analysis of the deposited data

Results flagged for a closer look

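For 5 genes of the Klf and Sp families the interaction term of the same edgeR fit was called. It compares the change that ruxolitinib made when added to AG221 with the change it made alone. Klf6 changed by -2.39 more on the log2 scale when ruxolitinib was added to AG221 than when it was given alone (edgeR adjusted p = 0.00142), and Klf2 by -2.86 more (edgeR adjusted p = 0.0363). Klf5 changed by 3.46 (edgeR adjusted p = 0.0474), Klf11 by 2.28 and Sp3 by 1.76 (edgeR adjusted p = 0.0363 for both) in the other direction. The Klf2 call was kept in 5 of 12 fits without 1 library. Klf5 had at most 15 counts in an AG221 library and 17 in a ruxolitinib library. Klf5, Klf11 and Sp3 were not refitted without 1 library. The term uses the vehicle and combined libraries by which the members were chosen, so the p-values of Klf6 and Klf2 are not independent of that choice. The combined libraries carry names that begin with B and the vehicle, AG221 and ruxolitinib libraries names that begin with A, and the letter and the combination cannot be told apart. Groups of 3 libraries were not tested for outlying samples, and every library stayed in the main fit. Raw counts of replicate pairs were compared by chi-square per degree of freedom. It was 174 and 134 for AG221 A9 with A8 and A10, beside 25.7 for A8 with A10. For ruxolitinib A16 it was 126 and 101 with A14 and A17, beside 15.0 for A14 with A17. Pairs in the other groups had 22.3 to 79.0.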

How the results depend on the processing

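No paired analysis was possible because the groups share no replicate numbers. For AG221 against vehicle the number of members called was 0 in the report, 1 with upper quartile scaling and with GC content offsets, 2 with DESeq2 and with 10 counts in every library, and 0 to 2 without 1 library. For combined treatment against ruxolitinib it was 4, with 2 under upper quartile scaling and under only the groups compared, and 2 to 4 without 1 library. For ruxolitinib against AG221 it was 1, with 0 without a filter and with only the groups compared, and 0 to 1 without 1 library. For combined treatment against WT it was 1, with 2 under total counts, 10 counts in every library, only the groups compared and DESeq2, and 0 to 1 without 1 library. For departure from additivity it was 2, with 1 under only the groups compared, and 1 to 2 without 1 library. For vehicle against WT, where the count is a description, it was 5, with 3 under total counts, and 3 to 5 without 1 library, the lowest without any WT library. The other counts stayed within 1.5 times. The cause of these shifts was not tested.

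The direction turned for 12 of 77 member comparisons, none of them called in the report. One is Klf10 with vehicle against WT, a description, at -0.23 to 0.14 without 1 library and 0.10 with GC content offsets. With GC content offsets the log2 fold change was 0.18 for Klf2 with AG221 against vehicle and 0.075 for Klf6 with combined treatment against WT. With upper quartile scaling it was -0.097 for Klf6 and -0.096 for Klf10 with ruxolitinib against AG221 and -0.14 for Klf4 with combined treatment against WT. Klf4 in that last comparison was also at -0.13 with total counts, -0.078 with 10 counts in every library and -0.0017 with only the groups compared. Klf13 departed from additivity by 0.035 with total counts. Without 1 library the ranges were -0.25 to 0.59 for Klf4 with AG221 against vehicle, -0.65 to 0.27 for Klf4 and -0.18 to 0.076 for Klf7 with ruxolitinib against vehicle, -0.81 to 0.28 for Klf2, -0.053 to 0.16 for Klf6 and -0.69 to 0.0017 for Klf4 with ruxolitinib against AG221, -0.80 to 0.52 for Klf4 and -0.13 to 0.027 for Klf6 with combined treatment against WT, and -0.15 to 0.11 for Klf13 departing from additivity. Klf6 stayed called in all alternatives for combined treatment against both single agents, for both single agents against WT and for departure from additivity. Each of these comparisons uses WT, vehicle or combined libraries that led to the choice of Klf6, so these calls are not independent of it.

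All 35 group levels of the members stayed within 1 SD with RLE, and 31 did with upper quartile and with total-count scaling. With Spearman's rho 3 of the 10 genes most like Klf6 and 0 of the 5 least like it were the same. Total-count scaling moved the median log2 fold change of all genes for AG221 against WT from -0.25 to -0.52. Low counts limit Klf2 and Klf4 most.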
